A study of Gallus gallus with 6 samples.

Results

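Enzymes and pumps that oxidise, conjugate and export foreign compounds and aldehydes were examined in the jejunal mucosa of heated hens. A gene was included when its symbol began with CYP1 to CYP4, UGT1, UGT2, SULT, EPHX, ALDH or ABCC, or was ABCG2 or ABCB1; ALDH5A1, of the GABA pathway, was left out. This gave 70 genes of the 15656 in the table, and 54 of them had a mean of at least 1 FPKM (fragments scaled to gene length and library size) over the libraries and were tested. Hens labelled heat-adapted were Leuang Hang Kao breeder hens and those labelled heat-sensitive were SUT breeder hens, and each group had 3 libraries. All hens were 28 weeks old and were kept at 36 °C for 6 h before the mucosa was taken. Each library was 1 pool of 4 hens, so 12 of the 25 hens housed in a group were sequenced. Breed and heat tolerance coincide in these labels and cannot be told apart, and no library came from hens that were not heated.

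The small intestine is the first tissue to meet swallowed drugs, plant compounds and toxins, and its absorptive cells, the enterocytes, carry much of the machinery that handles them. Cytochrome P450 enzymes (CYP) add oxygen to a compound, epoxide hydrolases (EPHX) open reactive epoxides, and aldehyde dehydrogenases (ALDH) turn aldehydes into acids. Glucuronosyltransferases (UGT) and sulfotransferases (SULT) then attach a soluble group, and ABC transporters pump the products out of the cell. Many of these enzymes also work on the body's own compounds, such as fatty acids, retinal, steroids and bilirubin.

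The read counts summed to 12729667 to 13070796 in the heat-adapted and 10829957 to 12212660 in the heat-sensitive libraries. They stand in another row order than the symbols, so all gene values below are FPKM, and the number of reads behind a gene is unknown. A search for count rows with the same profile over libraries as an FPKM row gave a peak of at most 4.62 SD above background over all column orders of the heat-adapted libraries, and of 27.7 SD in the heat-sensitive libraries. The count rows of 114 genes were found through their heat-sensitive profiles, a choice that fixes their close match in that group. Over these genes the log2 ratio of count to FPKM, taken against its heat-sensitive mean per gene, had an SD of 0.711 to 0.831 in the heat-adapted columns. A wrong match would also give such a spread, and the rate of wrong matches was not measured. Where the matches are right, counts and FPKM of these genes in the heat-adapted group do not describe the same levels. Of the 114 genes, 3 are members: ALDH1A1, CYP2J23 and CYP2J22. The table does not show which of the 2 sets of columns holds the labelled heat-adapted libraries. Every heat-adapted value and every difference below is that of the FPKM columns under their headers, and holds for the labelled hens only if those headers are right. The enterocyte markers VIL1, SI and FABP2 were at 512 to 667, 280 to 556 and 7072 to 11880 FPKM in heat-adapted and 268 to 455, 196 to 269 and 5238 to 9426 FPKM in heat-sensitive libraries. All enterocyte markers summed to between 27043 and 35936 FPKM in heat-adapted and between 17019 and 31422 in heat-sensitive libraries, the lowest being heat-sensitive replicate 2. FABP1 and FABP2 made up most of each of these enterocyte marker sums. Of 22 such markers, 20 had a positive log2 difference (median 0.45). Among these 20, ALPI reached the filter of 1 FPKM only through the heat-adapted libraries. Smooth muscle markers summed to 377 to 764 against 812 to 1520 (12 of 12 lower, median -1.07), proliferation markers to 99.6 to 155 against 236 to 285 (8 of 8 lower, median -0.955), and B and plasma cell markers to 15190 to 23030 against 30654 to 34722 (9 of 9 lower, median -0.78). IGLL1 alone made up most of each B and plasma cell sum, at 11081 to 18008 FPKM in heat-adapted and 24487 to 27131 in heat-sensitive libraries. The groups overlapped for CD79B, PAX5, TNFRSF13B and MZB1 and did not for the other 5 of these markers. Fibroblast and endothelial markers were lower in 10 of 10 each (medians -0.47 and -0.35) with overlapping sums, of 221 to 333 against 278 to 579 FPKM and of 87.8 to 147 against 129 to 192. Sums also overlapped for T and NK cell markers (820 to 1244 against 810 to 1349, 1 of 11 higher), macrophage markers (3363 to 4182 against 3802 to 4454, 3 of 7 higher), goblet markers (1034 to 1739 against 1301 to 2173, 4 of 6 higher) and red blood cell markers (44.1 to 75.1 against 43.3 to 67.1, 1 of 2 higher). Among the lower T and NK cell markers, CD28 reached the filter of 1 FPKM only through the heat-sensitive libraries. CD74 alone made up most of the macrophage sum, at 3157 to 4011 FPKM in heat-adapted and 3571 to 4256 in heat-sensitive libraries. Pancreatic markers stayed at 1.95 FPKM or below in sum, and 0 of 6 reached the test. Liver markers summed to 27.9 to 109 against 28.8 to 56.1 (4 of 6 higher). Albumin (ALB) was at 53.4 FPKM in heat-adapted replicate 2 and at 0.48 to 0.81 in the other libraries. ALB, among the higher ones, thus reached the filter of 1 FPKM only through that library. APOH was at 2.76 there and listed at 0 in the others. FGA, TTR, F2 and SERPINC1 were also highest in heat-adapted replicate 2, at 2.5, 6.56, 18.4 and 0.38 FPKM. Other liver markers were not: FGB and FGG were highest in heat-sensitive replicate 3, at 22.6 and 10.1 FPKM. TAT was highest in heat-adapted replicate 1 and CPS1 in heat-sensitive replicate 1, at 1.95 and 0.57 FPKM. The part of cell makeup in the differences below was not tested, and in bulk tissue fewer cells of a type and less RNA per cell cannot be told apart.

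On FPKM without further scaling, members with high levels were mostly higher in the heat-adapted hens, unlike all genes at that level. The enterocyte markers above were mostly higher too (20 of 22 with ALPI counted, median 0.45), and a link to the members was not tested. Members with low levels were mostly lower, as were all genes at that level. Of the 20 members at a mean of 100 FPKM or more, 18 had a positive log2 difference (median 0.38), where 44.2% of the 1038 genes at that level did. Between 10 and 100 FPKM, 11 of 16 were positive (median 0.25) against 47.2% of all such genes, and between 1 and 10 FPKM 4 of 18 were positive (median -0.16) against 35.1%. Among these 18, ALDH1L2 reached the filter of 1 FPKM only through the heat-sensitive libraries. After TPM and median-of-ratios scaling, most genes at 100 FPKM or more were positive too. TPM scaling gave 20 of 20 members beside 60.7% of all genes at that level, and median-of-ratios scaling 20 beside 54.1%. Quantile scaling gave 18 of 20 members beside 45.4%. Among the 20 abundant members, 16 were positive with the second heat-adapted library left out, beside 49.0% of all genes at that level, and 15 with the second heat-sensitive library left out, beside 40.6%. A log2 difference is the heat-adapted mean of log2(FPKM + 1) less the heat-sensitive mean, a scale that compresses the differences of low genes.

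**Figure D1:**
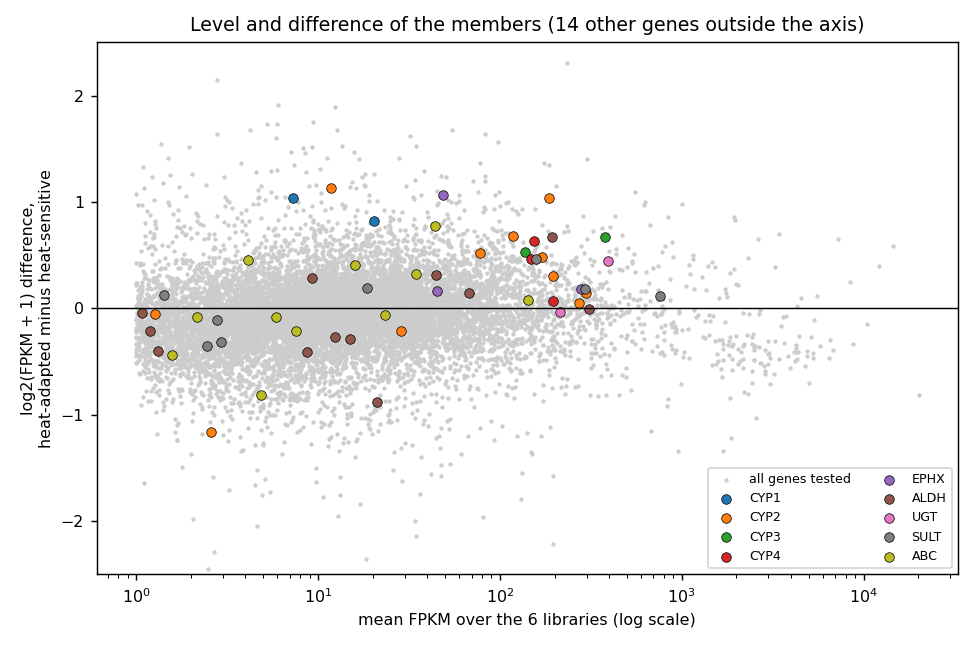
Each point is a gene, placed by its mean FPKM over the 6 libraries (log axis) and by its log2(FPKM + 1) difference, heat-adapted minus heat-sensitive; members are coloured by family and all genes tested are grey, 14 of them outside the axis. Of the 20 members at 100 FPKM or more, 18 lie above the zero line, and of the 18 members between 1 and 10 FPKM, 4 do.

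No member passed the adjusted threshold. In the limma fit, 0 of 54 had an adjusted p below 0.05, as against 0.0949% of all genes tested (0.0604% higher and 0.0345% lower), and the lowest was 0.0701, for EPHX2. An unadjusted p below 0.05 was reached by 13 members with higher values (24.1%) against 7.13% of all genes, and by 4 with lower values (7.41%) against 10.9%. The groups did not overlap in 13 higher members (24.1%), against 9.00% of all genes, and in 5 lower ones (9.26%), against 12.9%. Among these 5, ALDH1L2 reached the filter of 1 FPKM only through the heat-sensitive libraries. The median log2 difference over the 54 was 0.14, beside -0.06 over all genes, and was 0.08 without heat-sensitive replicate 2. Leaving out the second heat-adapted library brought the count of higher members at an unadjusted p below 0.05 to 7 (13%, beside 5.20% of all genes), and leaving out the second heat-sensitive one to 8 (14.8%, beside 4.16%). Rescaling to TPM, in which each library sums to the same total, shifted the median of all genes to 0.05 and that of the members to 0.27. It gave 18 members higher and 3 lower at that p, beside 11.6% and 6.05% of all genes, and median-of-ratios scaling gave 16 and 4, beside 9.34% and 9.08%. Positive differences numbered 33 of 54 on FPKM beside 41.7% of all genes, 40 after TPM scaling beside 56.9%, and 35 after median-of-ratios scaling beside 49.9%. Groups without overlap numbered 16 higher and 4 lower after TPM scaling beside 14.7% and 7.35% of all genes, and 14 and 4 after median-of-ratios scaling beside 11.4% and 11.8%.

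**Figure D2:**
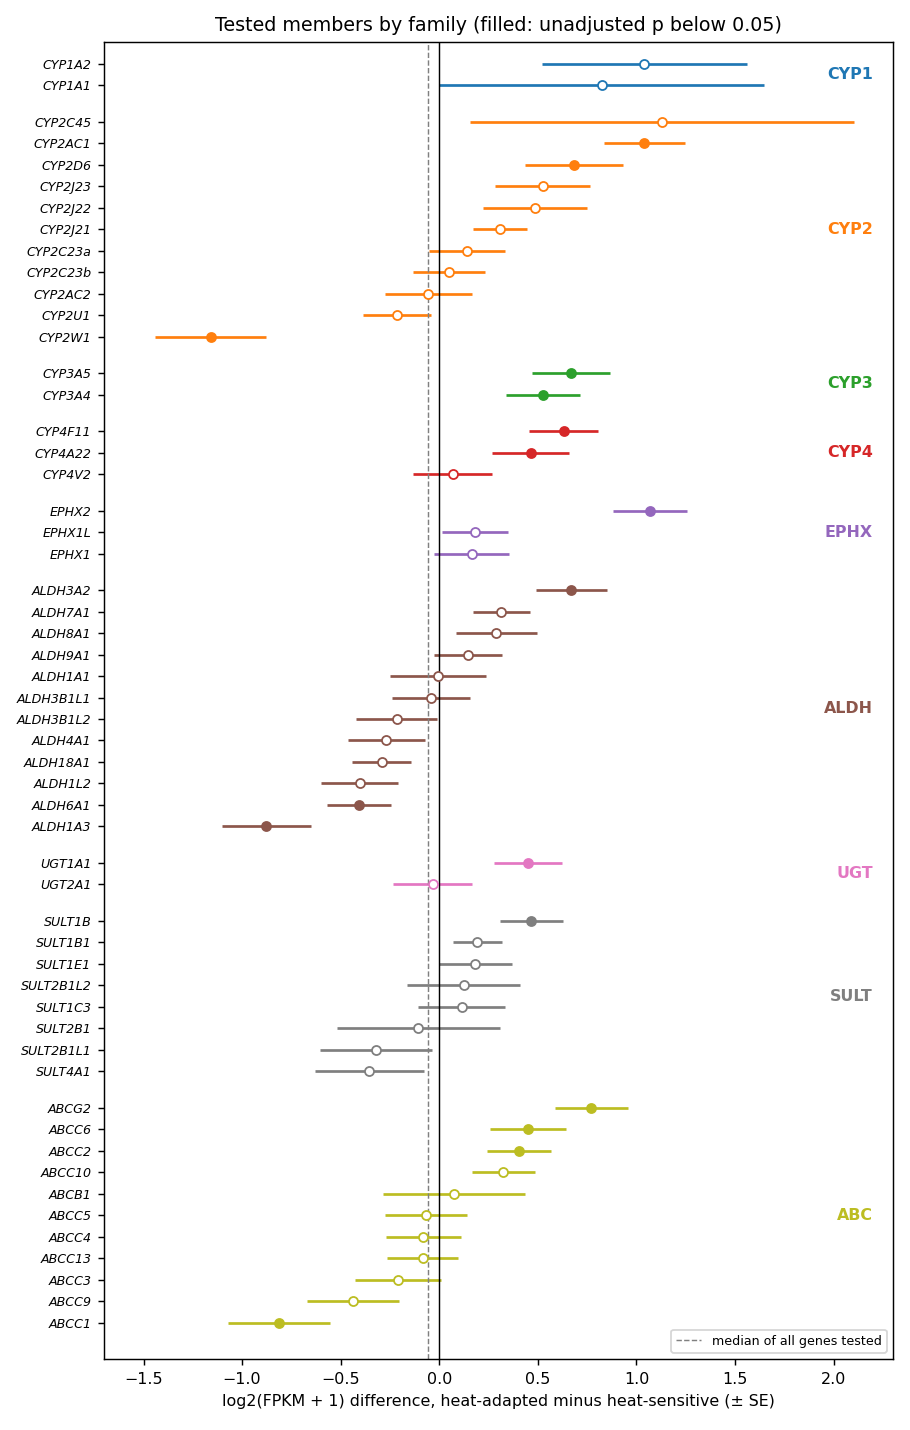
Points are log2(FPKM + 1) differences, heat-adapted minus heat-sensitive, with bars of 1 SE (n = 3 libraries each) for the 54 tested members, grouped by family; filled points have an unadjusted p below 0.05 and the dashed line is the median of all genes tested, -0.06. The CYP1, CYP3, CYP4 and EPHX points lie above zero, while 8 of 12 ALDH and 6 of 11 ABC points lie below it. Of the 11587 genes tested, 6752 lie below zero. ALDH1L2, among these ALDH points, reached the filter of 1 FPKM only through the heat-sensitive libraries, so its bar and fill are not read as a test.

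**Figure D3:**
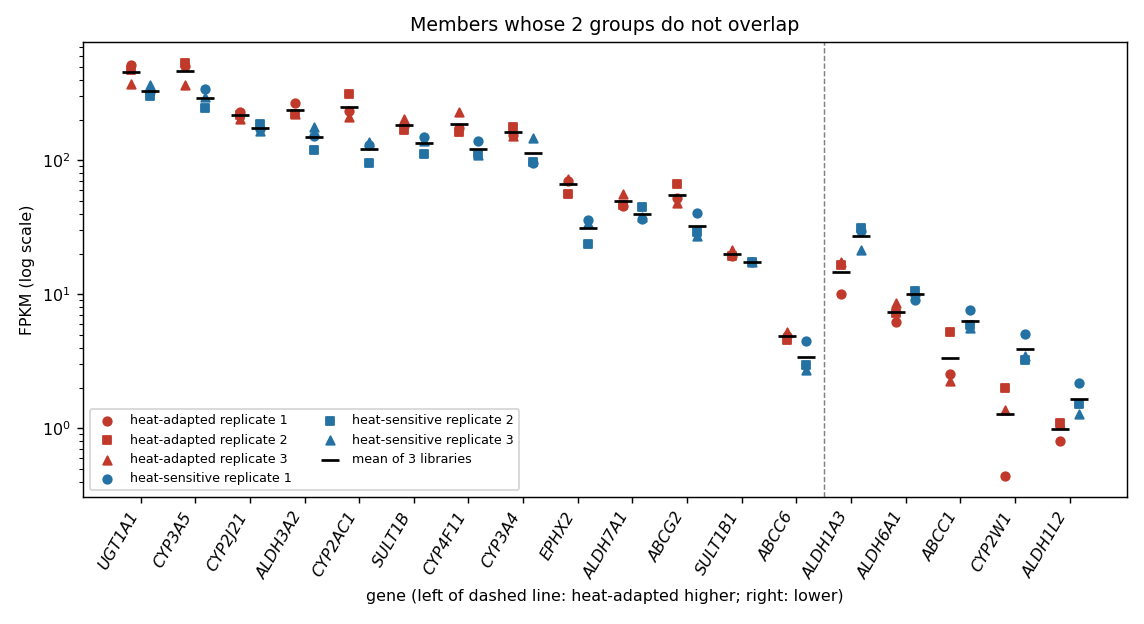
FPKM (log axis) in each of the 3 heat-adapted and 3 heat-sensitive libraries, with the mean of each group as a black line, for the 18 tested members whose groups do not overlap. The 13 genes left of the dashed line are higher in the heat-adapted libraries, from UGT1A1 to ABCC6. The 5 on the right, from ALDH1A3 to ALDH1L2, are lower. These are 24.1% and 9.26% of the tested members, beside 9.00% and 12.9% of all genes tested. ALDH1L2 reached the filter of 1 FPKM only through the heat-sensitive libraries.

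The CYP1 enzymes, which oxidise flat aromatic compounds and are classic targets of the aryl hydrocarbon receptor, varied widely between pools of the same group. CYP1A1 was at 30.2, 7.04 and 41.2 FPKM in the heat-adapted libraries, against 28.6, 4.22 and 11.3 in the heat-sensitive libraries. CYP1A2 was at 6.89, 6.14 and 17.0 FPKM in the heat-adapted libraries, against 8.49, 1.85 and 3.34 in the heat-sensitive libraries. In both genes replicate 2 was the lowest library of its group, and the groups overlapped. The log2 differences were 0.82 (SE 0.82, limma adjusted p = 0.641) for CYP1A1 and 1.04 (SE 0.52, adjusted p = 0.344) for CYP1A2. The within-group SD of CYP1A1 was 1.26 on the log2 scale, which 0.25% of tested genes equalled or exceeded, and that of CYP1A2 was 0.81, which 1.34% did. CYP1B1, at 0.29 to 0.65 FPKM in heat-adapted and 0.60 to 1.44 in heat-sensitive libraries, and CYP1C1, at 0.05 to 0.20 against 0.18 to 0.43, were too low to be tested.

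CYP2C45 and ABCB1 also spread widely. CYP2C45 was at 42.6, 4.98 and 5.06 FPKM in the heat-adapted libraries, against 14.1, 1.71 and 2.67 in the heat-sensitive libraries (log2 difference 1.13, SE 0.97, adjusted p = 0.579). Replicate 1 held the highest value in both groups. Its within-group SD of 1.5 was equalled or exceeded by 0.104% of tested genes. ABCB1, the P-glycoprotein pump of the apical membrane, was at 93.7, 211 and 136 FPKM in the heat-adapted libraries, against 114, 209 and 95.9 in the heat-sensitive libraries, with replicate 2 highest in both groups. Its log2 difference of 0.07 (SE 0.36, adjusted p = 0.936) changed sign when single libraries were left out. The median within-group SD was 0.267 over the 54 members and 0.218 over all genes tested.

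**Figure D4:**
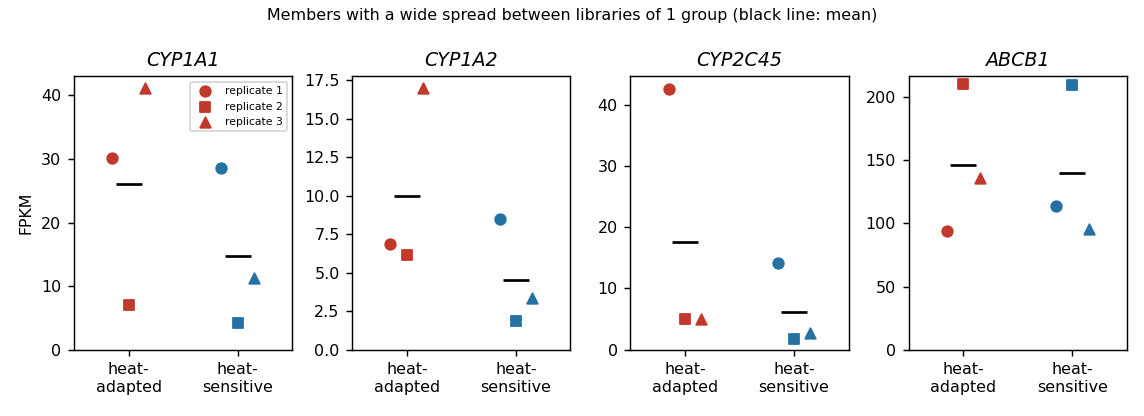
FPKM of CYP1A1, CYP1A2, CYP2C45 and ABCB1 in each library of the heat-adapted and heat-sensitive groups, with symbols for the replicate number and a black line for the group mean. The CYP1A1 values run between 7.04 and 41.2 in the heat-adapted libraries and between 4.22 and 28.6 in the heat-sensitive libraries, and in each panel the groups overlap.

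The CYP2 family is the largest of the P450 families here, with 18 genes, 11 of them tested. The tested genes had a median log2 difference of 0.31, and 8 of 11 were positive. CYP2AC1 was at 232, 313 and 210 FPKM in the heat-adapted libraries, against 131, 95.0 and 138 in the heat-sensitive libraries. The lowest heat-adapted library thus lay above the highest heat-sensitive one, and the means of 251 ± 54.3 and 121 ± 23.1 (SD, n = 3 each) differed by 1.04 on the log2 scale (SE 0.21, limma adjusted p = 0.0818). Its neighbour in the GRCg7b reference, CYP2AC2, was at 1.24 ± 0.494 and 1.31 ± 0.321 (log2 difference -0.06, SE 0.22). CYP2D6, whose human namesake oxidises many basic drugs, was at 168, 175 and 97.2 FPKM in the heat-adapted libraries, against 91.1, 70.3 and 106 in the heat-sensitive libraries. Heat-adapted replicate 3 fell within the heat-sensitive range (log2 difference 0.68, SE 0.25, adjusted p = 0.216).

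The CYP2J enzymes, which in mammals form epoxides from arachidonic acid, and the CYP2C23 enzymes were among the most abundant CYP2 genes. CYP2J21 was at 229, 217 and 204 FPKM in the heat-adapted libraries, against 172, 186 and 166 in the heat-sensitive libraries. These narrow ranges did not overlap (log2 difference 0.31, SE 0.14, adjusted p = 0.28). CYP2J22 and CYP2J23, its neighbours, had differences of 0.49 (SE 0.26) and 0.52 (SE 0.24), with overlapping groups. CYP2C23a was at 310 ± 27.5 against 286 ± 71.1 FPKM and CYP2C23b at 277 ± 36.8 against 269 ± 48.6 (SD, n = 3 each), with log2 differences of 0.14 (SE 0.19) and 0.05 (SE 0.18).

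CYP2W1, which in humans is known from fetal gut and colon tumours, was lower. It stood at 0.44, 1.99 and 1.38 FPKM in the heat-adapted libraries, against 5.03, 3.24 and 3.47 in the heat-sensitive libraries. All heat-adapted values lay below the heat-sensitive ones (log2 difference -1.16, SE 0.28, limma adjusted p = 0.116). CYP2U1 was at 26.6 ± 4.94 against 30.9 ± 4.43 FPKM (log2 difference -0.22, SE 0.17). The 7 CYP2 genes below 1 FPKM included CYP2R1, which makes the circulating form of vitamin D in the liver, at 0.46 to 0.73 FPKM in heat-adapted and 0.30 to 0.61 in heat-sensitive libraries. CYP2AB4 was at 0.10 to 0.11 FPKM in heat-adapted and 0.12 to 0.54 in heat-sensitive libraries. The others, CYP2W2, CYP2AC7, CYP2AB1, CYP2AB2 and CYP2AB5, had means of 0.115 FPKM or less.

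Both CYP3A genes, whose human relatives are the broadest drug-oxidising P450s of the gut, were higher in every heat-adapted library than in any heat-sensitive one. CYP3A5 was at 503, 533 and 365 FPKM in the heat-adapted libraries, against 338, 244 and 295 in the heat-sensitive libraries. CYP3A4 was at 154, 177 and 153 FPKM in the heat-adapted libraries, against 96.0, 98.0 and 148 in the heat-sensitive libraries. The gap was narrow for CYP3A4, where heat-sensitive replicate 3 came close to the heat-adapted values. The log2 differences were 0.67 (SE 0.20, limma adjusted p = 0.163) and 0.53 (SE 0.19, adjusted p = 0.212). CYP3A4 and CYP3A5 are adjacent in the reference, and no label says how reads shared between such similar genes were counted; the same limit holds for CYP1A1 and CYP1A2, the CYP2C23 pair, the CYP2J genes and SULT1B with SULT1B1.

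The CYP4 enzymes hydroxylate fatty acids and related lipids at the tail end of the chain. CYP4F11 was at 174, 162 and 228 FPKM in the heat-adapted libraries, against 139, 112 and 110 in the heat-sensitive libraries, with no overlap (log2 difference 0.63, SE 0.18, limma adjusted p = 0.147). CYP4A22 was at 130, 180 and 214 FPKM in the heat-adapted libraries, against 113, 134 and 125 in the heat-sensitive libraries. Heat-adapted replicate 1 lay within the heat-sensitive range, and the difference was 0.46 (SE 0.19, adjusted p = 0.259). CYP4V2, the most abundant CYP4 gene, was at 203 ± 45.5 against 191 ± 24.4 FPKM (log2 difference 0.07, SE 0.20), and CYP4B7 was at 0.51 FPKM or less in every library. Over CYP1 to CYP4 together, 15 of 18 tested genes had a positive difference, against 41.7% of all genes, with a median of 0.51; without heat-sensitive replicate 2 these were 13, beside 41.7% of all genes in that fit too, and 0.32. Without the filter on low values, the median over all 28 genes was 0.11.

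EPHX2, the soluble epoxide hydrolase that opens epoxides of fatty acids, showed the largest separation among the members relative to its error. It was at 70.7, 55.9 and 72.9 FPKM in the heat-adapted libraries, against 35.9, 23.7 and 34.3 in the heat-sensitive libraries. Every heat-adapted value exceeded every heat-sensitive one, and the means were 66.5 ± 9.26 and 31.3 ± 6.61 (SD, n = 3 each). The log2 difference was 1.07 (SE 0.19, limma adjusted p = 0.0701). It lay between 0.89 and 1.19 with each library left out in turn. The adjusted p was 0.0432 after TPM scaling, and ranged from 0.0336 to 0.176 over all alternatives. The microsomal hydrolases, which act on epoxides of foreign compounds, did not separate. EPHX1L was at 296 ± 16.2 against 264 ± 48.5 FPKM (log2 difference 0.18, SE 0.17) and EPHX1 at 47.6 ± 5.69 against 43.1 ± 11.2 (0.16, SE 0.19). EPHX4 was at 0.09 to 0.87 FPKM in heat-adapted and 0.29 to 0.77 in heat-sensitive libraries.

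The aldehyde dehydrogenases differed in both directions. Over all genes tested the median log2 difference was -0.06 and 41.7% were positive. The 12 tested aldehyde dehydrogenases had a median of -0.13, and 4 of them were positive. Among the negative ones, ALDH1L2 reached the filter of 1 FPKM only through the heat-sensitive libraries, and it counts in this median. The median was negative also after TPM (-0.07), median-of-ratios (-0.10) and quantile scaling (-0.04), and ran from -0.19 to -0.01 over all alternatives. ALDH3A2, which oxidises long-chain fatty aldehydes, was at 267, 220 and 222 FPKM in the heat-adapted libraries, against 152, 118 and 179 in the heat-sensitive libraries. The groups did not overlap, and the difference was 0.67 (SE 0.18, limma adjusted p = 0.142). ALDH7A1, of lysine breakdown, was at 45.9, 46.6 and 56.2 FPKM in the heat-adapted libraries, against 36.3, 44.9 and 37.6 in the heat-sensitive libraries, just clear of each other (log2 difference 0.32, SE 0.15, adjusted p = 0.295). ALDH9A1, which oxidises aminoaldehydes, was at 70.9 ± 10.3 against 64.1 ± 11.2 FPKM (0.15, SE 0.17).

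The ALDH1A enzymes make retinoic acid from retinal. ALDH1A1, the most abundant aldehyde dehydrogenase, was at 293, 275 and 341 FPKM in the heat-adapted libraries, against 428, 213 and 307 in the heat-sensitive libraries. The heat-sensitive libraries spanned the heat-adapted ones, and the difference of -0.01 (SE 0.24) was positive after TPM and median-of-ratios scaling. ALDH1A3 was at 10.04, 16.7 and 17.4 FPKM in the heat-adapted libraries, against 29.6, 31.3 and 21.5 in the heat-sensitive libraries. All heat-adapted values lay below the heat-sensitive ones (log2 difference -0.88, SE 0.23, adjusted p = 0.128). ALDH1A2 was at 0.20 to 0.50 FPKM in heat-adapted and 0.24 to 0.50 in heat-sensitive libraries and was not tested. CYP26B1, which degrades retinoic acid and is no member, was at 0.45, 0.69 and 1.18 FPKM in the heat-adapted libraries, against 2.0, 2.4 and 1.08 in the heat-sensitive libraries. It reached the filter of 1 FPKM only through the heat-sensitive libraries, so its values are given without a test.

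Other aldehyde dehydrogenases work in amino acid and folate metabolism. ALDH6A1, of valine and pyrimidine breakdown, was at 6.17, 7.26 and 8.62 FPKM in the heat-adapted libraries, against 9.04, 10.5 and 10.5 in the heat-sensitive libraries. The groups did not overlap, and the difference was -0.41 (SE 0.16, limma adjusted p = 0.244). ALDH1L2, of mitochondrial folate metabolism, was at 0.81, 1.09 and 1.07 FPKM in the heat-adapted libraries, against 2.17, 1.52 and 1.27 in the heat-sensitive libraries. These are levels near the filter of 1 FPKM, which it passed only through the heat-sensitive libraries, and no test of it is given. ALDH18A1, of proline synthesis, and ALDH4A1, of proline breakdown, had differences of -0.29 (SE 0.15) and -0.27 (SE 0.19) with overlapping groups. ALDH8A1, of tryptophan breakdown, was positive at 0.29 (SE 0.21), and the low ALDH3B1L1 and ALDH3B1L2 were at -0.04 (SE 0.20) and -0.22 (SE 0.21).

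UGT1A1, whose human namesake conjugates bilirubin, was at 516, 472 and 373 FPKM in the heat-adapted libraries, against 325, 301 and 365 in the heat-sensitive libraries. The lowest heat-adapted and highest heat-sensitive values were close, and the difference was 0.45 (SE 0.17, limma adjusted p = 0.237). UGT2A1 was at 225, 244 and 167 FPKM in the heat-adapted libraries, against 174, 220 and 257 in the heat-sensitive libraries. It did not separate, and its difference of -0.03 (SE 0.20) was positive after TPM and median-of-ratios scaling.

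Sulfotransferases held the most abundant member of all. SULT1C3 was at 852, 671 and 839 FPKM in the heat-adapted libraries, against 923, 544 and 752 in the heat-sensitive libraries, and 1.17% of all genes in the table had a higher mean. Its groups overlapped widely (log2 difference 0.11, SE 0.22), with replicate 2 lowest in each. SULT1E1, which in mammals inactivates estrogens, was at 313 ± 57.0 against 275 ± 40.4 FPKM (0.18, SE 0.19). SULT1B was at 182, 169 and 202 FPKM in the heat-adapted libraries, against 148, 112 and 140 in the heat-sensitive libraries, and its neighbour SULT1B1 was at 19.3, 19.3 and 21.6 against 17.4, 17.4 and 17.4. Mammalian SULT1B1 acts on thyroid hormones and small phenols. Neither overlapped between the groups, with differences of 0.47 (SE 0.16, limma adjusted p = 0.196) and 0.19 (SE 0.13, adjusted p = 0.445).

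Low sulfotransferases followed no common direction. SULT4A1, a brain sulfotransferase in mammals, was at 1.40, 3.69 and 1.33 FPKM in the heat-adapted libraries, against 2.97, 3.00 and 2.45 in the heat-sensitive libraries (log2 difference -0.35, SE 0.28). SULT2B1, SULT2B1L1 and SULT2B1L2 had differences of -0.11 (SE 0.41), -0.32 (SE 0.28) and 0.12 (SE 0.29), with overlapping groups. SULT6B1 was at 0.08, 0.08 and 0.20 FPKM in the heat-adapted libraries, against 0.42, 0.40 and 0.25 in the heat-sensitive libraries, too low to be tested. The rows named SULT and SULT6B1L, adjacent in the reference, were at 1.51 and 0.98 FPKM in heat-adapted replicate 2. That library also had the highest albumin value, and a link between them was not tested. In the other heat-adapted libraries SULT was at 0.04 and SULT6B1L at 0.16 or less, and in the heat-sensitive libraries SULT was listed at 0 and SULT6B1L was at 0.1 or less. The family's median difference was 0.12 over 8 tested genes, and -0.03 without heat-adapted replicate 3.

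The transporters were split. ABCG2, the apical pump for drugs, plant compounds and urate, was at 52.0, 66.4 and 48.3 FPKM in the heat-adapted libraries, against 40.1, 29.4 and 27.4 in the heat-sensitive libraries. The groups did not overlap, and the difference was 0.77 (SE 0.18, limma adjusted p = 0.111). ABCC2, the apical pump for glucuronides and glutathione conjugates, was at 16.6, 19.2 and 19.5 FPKM in the heat-adapted libraries, against 16.8, 12.6 and 11.9 in the heat-sensitive libraries. Heat-adapted replicate 1 and heat-sensitive replicate 1 nearly coincided (log2 difference 0.41, SE 0.16, adjusted p = 0.244). ABCC6, which governs the release of ATP from cells, was at 4.90, 4.60 and 5.23 FPKM in the heat-adapted libraries, against 4.47, 2.96 and 2.72 in the heat-sensitive libraries (0.45, SE 0.19, adjusted p = 0.263), without overlap.

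ABCC1, the neighbour of ABCC6 in the reference and a pump of the basolateral membrane in mammals, was at 2.55, 5.25 and 2.25 FPKM in the heat-adapted libraries, against 7.60, 5.86 and 5.65 in the heat-sensitive libraries. Heat-adapted replicate 2 came close to the heat-sensitive values, yet all heat-adapted values lay below them (log2 difference -0.82, SE 0.26, limma adjusted p = 0.178). ABCC3, another basolateral pump, was at 7.01 ± 1.72 against 8.22 ± 1.77 FPKM (-0.21, SE 0.22), and ABCC4, which exports cyclic nucleotides, at 2.08 ± 0.550 against 2.23 ± 0.135 (-0.08, SE 0.19). ABCC10 was at 38.7 ± 3.70 against 30.9 ± 5.12 FPKM (0.33, SE 0.16), and ABCC5 and ABCC13 differed by -0.07 (SE 0.21) and -0.08 (SE 0.18). ABCC8 and ABCC9 are regulatory subunits of potassium channels rather than pumps; ABCC8 was below 1 FPKM in every library and ABCC9, at 1.17 ± 0.335 against 1.98 ± 0.711, differed by -0.44 (SE 0.23). The median over the 11 tested transporters was -0.07, beside -0.06 over all genes tested. It was 0.05 after TPM scaling, where the median of all genes was positive too, and 0.07 after quantile scaling.

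Added up, the 70 genes held 0.776%, 0.803% and 0.686% of the summed FPKM of all genes in the heat-adapted libraries, against 0.607%, 0.488% and 0.594% in the heat-sensitive libraries. All heat-adapted shares lay above the heat-sensitive ones, and heat-sensitive replicate 2 was lowest. The mean shares were 0.755% ± 0.0616 and 0.563% ± 0.0654 (SD, n = 3 each), a ratio of 1.34, and the summed FPKM itself had a ratio of 1.23. By family, the shares did not overlap for CYP2, CYP3, CYP4, EPHX and ALDH, and overlapped for CYP1, UGT, SULT and ABC. For ALDH the lowest heat-adapted share was 0.0838% and the highest heat-sensitive one 0.0834%. The summed FPKM itself did not overlap for CYP2 and CYP3 and overlapped for every other family. All genes summed to 779174 to 884625 FPKM in heat-adapted and 892744 to 897548 in heat-sensitive libraries, and the smaller totals raise every heat-adapted share. A few genes set each sum: CYP3A5 held 73.4% of the CYP3 mean, EPHX1L 74.7% of EPHX, SULT1C3 61.3% of SULT and ALDH1A1 45.2% of ALDH. Of the 36 members at 10 FPKM or more, 19 had their lowest value in heat-sensitive replicate 2. Over all 54 tested members, 21 were lowest there and 14 in heat-adapted replicate 1. The share over all genes was not counted, so this may not be particular to the members. The same library had the lowest enterocyte marker sum, most of which came from FABP1 and FABP2. Single markers differed: VIL1 was lowest there, at 268 FPKM, while SI was at 269 there and at 196 in heat-sensitive replicate 1.

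**Figure D5:**
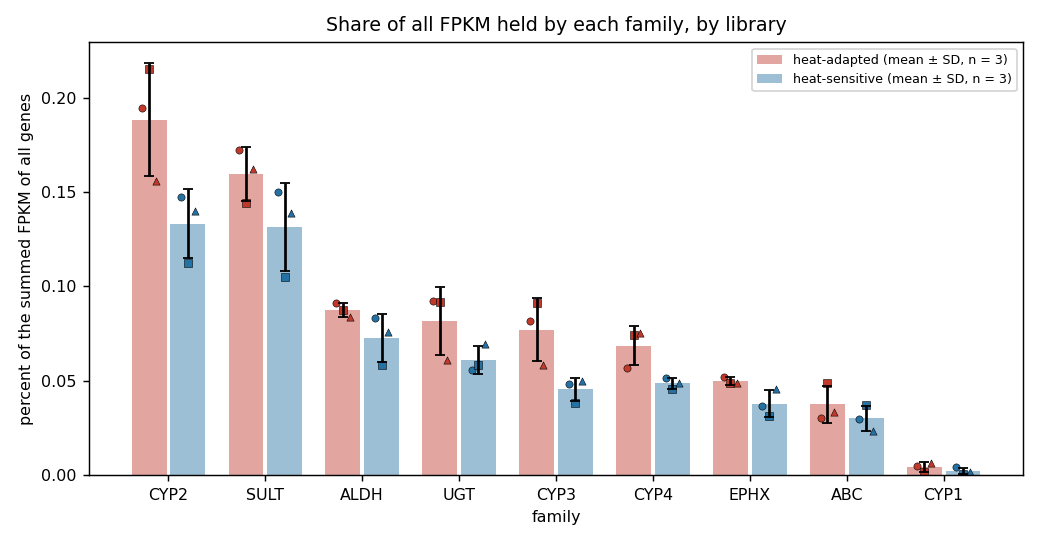
Bars are the mean share of the summed FPKM of all genes held by each family, in percent, with SD (n = 3 libraries), heat-adapted left and heat-sensitive right; symbols are single libraries (circle, square and triangle for replicates 1, 2 and 3). The CYP2 genes hold the largest share, 0.188% ± 0.0300 in the heat-adapted and 0.133% ± 0.0184 in the heat-sensitive libraries, and the CYP3 shares are 0.0771% ± 0.0168 and 0.0454% ± 0.00626.

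Genes around these families gave no call either. Over 5 lists of regulators, P450 partners, other phase I enzymes, cofactor and transferase genes and other transporters, 0 of 99 tested genes passed the adjusted threshold with limma. At an unadjusted p below 0.05, 16 were higher and 4 lower, where 7.13% and 10.9% of all genes were, and 59 had a positive difference, where 41.7% of all genes did. The same shares of all genes are the background of each list below. Of 21 tested receptors and regulators, 9 had positive and 12 negative differences (median -0.08), with 3 higher and 1 lower at that p. The lower gene was CYP26B1, which reached the filter of 1 FPKM only through the heat-sensitive libraries. It is counted here and among the 4 lower genes of all lists, and no test of it is given. AHR2, a second aryl hydrocarbon receptor of birds and fish, was at 8.73, 5.66 and 5.52 FPKM in the heat-adapted libraries, against 2.19, 2.57 and 3.28 in the heat-sensitive libraries. Its groups were well apart (log2 difference 1.04, SE 0.21, adjusted p = 0.084). The receptor AHR, its partner ARNT and its repressor AHRR differed by -0.09 (SE 0.195), -0.09 (SE 0.152) and -0.02 (SE 0.211), with overlapping groups. NR1I3, a nuclear receptor for foreign compounds named after its values were seen, was at 37.5, 28.3 and 51.1 FPKM against 27.7, 28.0 and 24.4 in the heat-sensitive libraries (0.49, SE 0.20, adjusted p = 0.254), with heat-adapted replicate 2 just above them. HNF4A, a regulator of enterocyte genes that is also on the enterocyte list, was at 54.6 ± 3.93 against 37.3 ± 6.68 FPKM (0.55, SE 0.16, adjusted p = 0.153). NFE2L2, which drives antioxidant and conjugation genes, and NR1H3, a sterol receptor, differed by 0.11 (SE 0.13) and 0.13 (SE 0.16).

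P450 enzymes depend on electrons from POR and on haem. POR was at 100.3, 71.8 and 68.5 FPKM in the heat-adapted libraries, against 50.9, 46.0 and 61.2 in the heat-sensitive libraries, without overlap (log2 difference 0.59, SE 0.18, limma adjusted p = 0.175). Of 15 tested genes of electron donors and haem supply, 8 were positive and 7 negative (median 0.07), with 3 higher and 1 lower at an unadjusted p below 0.05. The haem synthesis gene ALAD was at 17.4, 23.7 and 13.4 FPKM in the heat-adapted libraries, against 9.83, 7.89 and 13.6 in the heat-sensitive libraries (0.74, SE 0.24), with a slight overlap. BLVRA, which reduces biliverdin from haem breakdown, was at 3.75, 4.31 and 4.50 FPKM in the heat-adapted libraries, against 15.4, 7.45 and 7.82 in the heat-sensitive libraries (-1.05, SE 0.25, adjusted p = 0.112). The cytochrome b5 gene CYB5A and the cytochrome b5 reductase gene CYB5R2 differed by -0.05 (SE 0.16) and -0.04 (SE 0.17).

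Of 24 other phase I genes, 17 were positive (median 0.13), with 4 higher and 1 lower at an unadjusted p below 0.05. CES1L1, a carboxylesterase, was at 99.9, 72.6 and 68.1 FPKM in the heat-adapted libraries, against 37.6, 38.1 and 41.0 in the heat-sensitive libraries. The groups were far apart (log2 difference 1.01, SE 0.17, limma adjusted p = 0.0631; 0.0444 after TPM scaling and 0.045 without heat-adapted replicate 3). The more abundant CES1L2 was at 793 ± 180 against 699 ± 121 FPKM (0.17, SE 0.22), the aldehyde reductase AKR7A2 at 452 ± 77.6 against 358 ± 66.5 (0.34, SE 0.19), and the esterase BCHE at 143 ± 17.9 against 103 ± 6.87 (0.47, SE 0.15). The retinol dehydrogenase RDH5 was at 10.7 ± 1.74 against 15.4 ± 2.22 FPKM (-0.48, SE 0.17).

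Of 21 cofactor and transferase genes, 15 were positive (median 0.15), with 4 higher and 1 lower at an unadjusted p below 0.05. The acyltransferase gene GLYATL3 was at 18.0, 22.1 and 38.5 FPKM in the heat-adapted libraries, against 11.4, 6.60 and 12.4 in the heat-sensitive libraries (log2 difference 1.26, SE 0.30, limma adjusted p = 0.119), without overlap. The arylamine acetyltransferase PNAT10 differed by 0.78 (SE 0.24) and GUSB, which removes glucuronic acid again, by 0.57 (SE 0.16), while UGP2, of UDP-glucose supply, and the methyltransferase TPMT differed by 0.01 (SE 0.17) and -0.17 (SE 0.14). Of 18 other transporters, 10 were positive (median 0.04), with 2 higher and 0 lower at that p. ABCB6, a porphyrin transporter, was at 16.6, 15.1 and 12.3 FPKM in the heat-adapted libraries, against 6.98, 6.29 and 8.55 in the heat-sensitive libraries (0.92, SE 0.17, adjusted p = 0.0739). The groups did not overlap. SLC22A13 was at 1.79, 1.36 and 1.97 FPKM in the heat-adapted libraries, against 1.18, 0.67 and 0.67 in the heat-sensitive libraries, and reached the filter of 1 FPKM only through the heat-adapted ones; it is counted above, and no test of it is given. The sterol pump subunits ABCG5 and ABCG8 differed by 0.37 (SE 0.17) and 0.345 (SE 0.155), and the organic anion carrier SLCO2B1, at 43.1 ± 3.91 against 41.0 ± 8.09 FPKM, by 0.09 (SE 0.17).

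Members that are neighbours in the genome were alike in some pairs and unlike in others. RefSeq's gene table for GRCg7b, another build than that of the files, held 64 of the 70 symbols directly and 1 as a synonym, and it was used only for names and neighbours. The adjacent CYP3A4 and CYP3A5 had differences of 0.53 and 0.67, CYP1A2 and CYP1A1 of 1.04 and 0.82, and CYP2J23, CYP2J22 and CYP2J21 of 0.52, 0.49 and 0.31. In the adjacent pair ABCC1 and ABCC6 the differences had opposite signs, at -0.82 (SE 0.26) and 0.45 (SE 0.19). CYP2AC1 differed by 1.04 (SE 0.21), while its low neighbour CYP2AC2 was near zero, at -0.06 (SE 0.22). UGT2A1, SULT1B, SULT1B1 and SULT1E1 follow one another in the reference and had differences of -0.03, 0.47, 0.19 and 0.18.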

How the data were processed

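Polyadenylated RNA of jejunal mucosa was sequenced in 6 libraries, each a pool of 4 hens, and grouped by the labels. The submitters' processing notes list, without roles, DESeq2, HTSeq 0.6.1, HISAT2 2.0.1 and cutadapt 1.9.1 and the build GRCg6a; their settings, strand handling and annotation are not given in any source used here. The deposited table holds FPKM, which the authors rounded to 2 decimals. It also holds estimated counts per row, deposited by the authors in another row order, of which 13.2% to 13.7% in a library are not whole. Across rows, mean FPKM and mean count had a Spearman's rho of -0.0049, so no count test was run, and counts gave only library totals and the search by profile over the heat-sensitive libraries (log2 tolerance 0.004, no second row within 0.02, FPKM of at least 20, counts of at least 100). In 19 rows the symbol had become a date; these were left out.

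Genes averaging 1 FPKM or more (11587) entered a limma fit (limma 3.58.1, R 4.3.3) of log2(FPKM + 1) with a mean-variance trend, robust estimation, no block and Benjamini-Hochberg adjustment over all of them (2-sided, threshold 0.05), checked on simulated data. Alternatives were other pseudocounts, filters and scalings, a replicate block and each library left out. Families and lists were described by counts and medians beside all genes. Named were, per family, the 3 members of highest mean FPKM, the 3 of smallest p and those whose groups did not overlap, with families of 6 or fewer whole; per surrounding list, the 2 genes of highest mean and the 3 of smallest p. Other names were chosen after their values were seen. P-values measure only the spread between pools, which may be technical in part. Members, lists and tests were chosen with earlier results of these data known.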

Additional observations from a re-analysis of the deposited data

How the results depend on the processing

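The number of members with an adjusted p below 0.05 was 1 after TPM scaling and 1 with the replicate number as a block, in both cases EPHX2, and 0 under every other alternative run. Over all genes tested, same-numbered libraries did not deviate together (r = -0.161, 0.11 and -0.191 for numbers 1 to 3, and 0.339 between heat-adapted replicate 1 and heat-sensitive replicate 3). These values cannot show whether libraries were paired by number, and no label names a pairing. CYP1A1, with replicate 2 lowest in both groups, had an unadjusted limma p of 0.0308 with the block (adjusted p = 0.287) and 0.353 without it (adjusted p = 0.641). With the block 15 members (27.8%) reached an unadjusted p below 0.05 beside 14.7% of all genes, and without it 17 (31.5%) beside 18.0%. With each library left out in turn, that count ran from 11 (20.4%, without the second heat-adapted library beside 15% of all genes and without the second heat-sensitive one beside 11.2%) to 19 (35.2%, beside 21.0%), the count of members whose groups do not overlap from 19 (35.2%, beside 27.5% of all genes) to 29 (53.7%, without heat-sensitive replicate 3, beside 40.8%; fewer libraries overlap less by construction), where all libraries gave 18 (33.3%, beside 21.9%), and the members' median from 0.08 to 0.19. The median was 0.27 after TPM scaling and 0.29 with a mean FPKM of at least 5, which leaves out low members. Of the surrounding genes, CES1L1 passed after TPM scaling (1 gene), and between 0 and 1 passed with a library left out. Differences near zero changed sign: ALDH1A1 was 0.116 after TPM and 0.0577 after median-of-ratios scaling, and UGT2A1 0.0889 and 0.0308. With libraries left out, ABCB1 ran from -0.22 to 0.41, ALDH1A1 from -0.26 to 0.24, CYP2C23b from -0.088 to 0.175, CYP4V2 from -0.0528 to 0.266, SULT1C3 from -0.0905 to 0.291 and UGT2A1 from -0.18 to 0.13. The cause of these shifts was not tested. The number of libraries limits what can pass, and the reads behind a member are unknown.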
